A study of Mus musculus with 24 samples.

Results

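Cpm (ENSMUSG00000020183) encodes carboxypeptidase M, and its RNA was followed here in cultured endothelium of mouse brain microvessels (MBMECs), the lining of the small vessels of the brain. It is 1 of 18091 genes in the table of the wild-type libraries and 1 of 18297 genes in the table of the knockout libraries. It was chosen by its normalized counts, for a low level with basal sphingosine-1-phosphate (S1P) and a small spread between replicates. The values with basal S1P are therefore a description, and no test is given for them.

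Carboxypeptidase M is a zinc metallopeptidase held on the outer face of the plasma membrane by a glycosylphosphatidylinositol (GPI) anchor. It removes a single arginine or lysine from the carboxyl end of peptides, among them kinins, the anaphylatoxins of the complement system, epidermal growth factor and the chemokine CXCL12. Removal of the last arginine from bradykinin turns a ligand of one kinin receptor into a ligand of the other. S1P is a lipid mediator in blood that acts on a small family of G protein-coupled receptors, and in endothelium it bears on the tightness of the barrier.

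The study held 24 libraries, 4 per group. Cells of wild-type C57B/6J mice made up 5 groups and received 50 nM S1P on the basal side, 50 nM S1P on the apical side, 500 nM of the S1P4 receptor agonist CYM50260 on the apical side, 500 nM of the agonist on the basal side, or vehicle. The remaining group held vehicle-treated cells from mice labelled S1P4 KO/KO, a global knockout of that receptor. All cells came from cortex and midbrain vessels of pooled brains (12 mice per replicate) and were kept in puromycin for 48 h against other cell types. They then grew on transwell inserts for 48 h and were harvested 24 h after treatment, with 3 inserts per sample. In the submitters' description basal S1P opens the barrier and the other treatments tighten it. It speaks of 4 sets of cells but does not say that each library came from its own pool. P-values therefore cover the variation among these libraries, which may be technical in part. Libraries of different groups may share a set of cells, and the tests treat all libraries as separate. The age of the mice was not stated.

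Values are normalized counts, as scaled and rounded by the authors. In units of 1000000, the knockout libraries summed to 17.4 to 17.8 and the wild-type libraries to 4.49 to 4.72. S1pr4, the gene of the S1P4 receptor, was at 250, 261, 349 and 260 in the libraries labelled knockout. It was at 113 to 190 in the wild-type libraries of the separately normalized wild-type table. With such different totals these counts are not on one scale, so they do not show a higher level in knockout. No source used here states which part of the gene was deleted. Endothelial markers were high in every wild-type library, with Pecam1 at 2358 to 3035, Cdh5 at 2560 to 3254 and Cldn5 at 799 to 1028. Several defining markers of other cells were low, with C1qa of microglia at 0 to 9, the leukocyte gene Ptprc at 0 to 12, Aqp4 of astrocytes at 0 to 4 and Rbfox3 of neurons at 0 to 7. Other genes of the same lists were not: the macrophage gene Cd68 was at 30 to 69, the astrocyte genes Aldh1l1 and Gja1 at 54 to 117 and 441 to 767, the neuronal tubulin Tubb3 at 72 to 327, the oligodendrocyte gene Cnp at 311 to 415 and the smooth muscle actin Acta2 at 435 to 982. The pericyte gene Rgs5 ranged from 26 to 402 and the fibroblast collagen Col1a1 from 2 to 314 between wild-type libraries. Xist, an RNA made in female cells, was at 0 or 1 in replicate 1 of all 5 wild-type groups. In replicates 2 to 4 it was at 173 to 2555, so replicate 1 alone held few or no female cells. Its levels were similar in wild-type libraries of the same replicate number, except in 4 libraries of 3 groups. It was at 552 in replicate 2 of basal S1P and 1382 in replicate 2 of apical agonist, against 2251 in replicate 2 of vehicle. It was at 525 and 1417 in replicates 3 and 4 of apical S1P, against 1063 and 190 in vehicle. Results for Cpm are given with and without these 4 libraries.

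In mm10 Cpm spans 57.9 kb of the plus strand of chromosome 10, with its start at 117629500 and its end at 117687352. GENCODE M21 lists 4 transcripts, of which 1, Cpm-201, is coding. It has 9 exons and 5195 bases, and 3835 of these bases, 73.8%, are 3′ UTR in the last exon (117683278 to 117687352). On the minus strand a small nuclear RNA gene, Gm25709, lies inside an intron. The next gene, Mdm2, runs towards Cpm on the minus strand and ends 1522 bases away, with no overlap. The 250 bases before the annotated start of the gene are shown because the level of Cpm RNA differed between groups. They are the plus strand of chr10:117629250-117629499 (RefSeq, GRCm38.p6), with every match of TATAA in capitals, and likewise every match of GGGCGG on either strand.

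Cpm promoter: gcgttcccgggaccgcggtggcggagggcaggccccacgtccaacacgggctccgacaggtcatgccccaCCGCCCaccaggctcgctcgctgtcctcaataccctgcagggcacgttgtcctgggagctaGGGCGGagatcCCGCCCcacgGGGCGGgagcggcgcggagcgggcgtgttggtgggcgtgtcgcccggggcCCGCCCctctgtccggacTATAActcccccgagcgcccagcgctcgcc

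TATAA started 30 bases before the gene's start, and 22.8% of 32851 RefSeq promoter windows of the same length hold that word on either strand. GGGCGG, a word read by Sp and KLF factors, was found at 5 places (180, 119, 108, 98 and 48 bases before the start), and 32.7% of windows hold it at least once. The matches do not overlap each other. The window was rich in G and C, at 74.4% against a median of 52.4% over all windows, and held 30 CpG pairs against a median of 6. The word CCAAT was not in these 250 bases on either strand, while 33.85% of windows hold it. The same was true of the word bound by TEAD factors, GGAATG, which 12.6% of windows hold. Neither the AP-1 word (TGANTCA) nor the CArG box of the factor SRF was there, against 6.75% and 1.47% of windows. Matches of letters are a description and do not show binding.

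Cpm was at 356, 381, 363 and 434 normalized counts with basal S1P in replicates 1 to 4. It was at 480, 536, 587 and 535 with apical S1P, at 590, 578, 542 and 572 with apical agonist, and at 550, 589, 530 and 557 with basal agonist. In vehicle it was at 554, 562, 545 and 614. All 4 basal S1P libraries lay below all 16 other wild-type libraries, whose lowest value was 480 in S1P apical replicate 1. Among the 12249 tested genes 14 (0.114%) lay below all 16 others in this way and 7 (0.0571%) above them. The rule picked Cpm for this pattern, so nothing is read from its place among these genes.

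**Figure D1:**
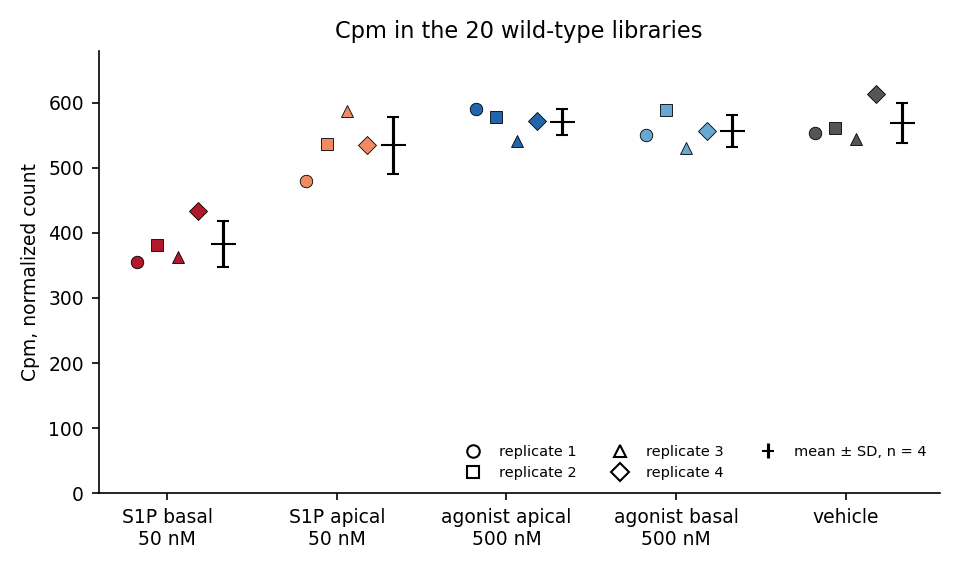
Cpm in each wild-type library (normalized count, y axis) by treatment group (x axis), with symbols for the replicate number and bars for the mean ± SD (n = 4). The basal S1P libraries sit between 356 and 434 and the 16 other libraries between 480 and 614.

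The group means were 383.5 ± 35.3 with basal S1P, 534.5 ± 43.7 with apical S1P, 570.5 ± 20.4 with apical agonist, 556.5 ± 24.5 with basal agonist and 568.8 ± 31.0 in vehicle (SD, n = 4 each). Ordered by level, apical agonist and vehicle were highest, followed by basal agonist, apical S1P and basal S1P. Each neighbour among the first 4 of these groups overlapped the next, and basal S1P overlapped none. Cpm was a steady gene: its SD within groups was 0.09 on the log2 scale, against a median of 0.13 over the 1000 genes of nearest mean level, and 22.2% of those genes varied less. This steadiness was part of why it was picked. The steps between whole numbers gave an estimated 331 to 669 reads on Cpm per wild-type library, and counting alone would give an error of 3.87% to 5.50%. The SD of the groups was 9.20% of the mean with basal S1P, 8.18% with apical S1P, 3.58% with apical agonist, 4.40% with basal agonist and 5.44% in vehicle, so counting error was of the size of the spread in 3 of these 5 groups. Counting error here treats reads as independent molecules.

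With basal S1P the log2 difference of Cpm from vehicle was -0.57 ± 0.07 (SE of the limma fit; 95% interval -0.72 to -0.42), or 32.6% lower. By replicate number the differences were -0.64, -0.56, -0.58 and -0.50. Their common sign follows from basal S1P libraries that lay below all vehicle libraries, the pattern that picked the gene. Over all 18 alternatives the value stayed between -0.63 (without S1P basal replicate 4) and -0.53 (without vehicle replicate 4), and it was -0.57 without the libraries that Xist set apart. Of 12249 tested genes, 3 (0.0245%) were called lower in this comparison at an adjusted p under 0.05 and 0 (0%) higher, and 640 (5.22%) had an unadjusted p under 0.05. These counts describe the whole table, and nothing is read from them for Cpm. The count was 0 when only these 8 libraries entered the fit.

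The side of S1P was compared at the matched dose of 50 nM. The log2 difference of Cpm between basal and apical S1P was -0.48 ± 0.07 (SE; 95% interval -0.63 to -0.33), and the 4 basal libraries lay below the 4 apical ones. By number the differences were -0.43, -0.49, -0.69 and -0.30. Without the libraries that Xist set apart the value was -0.41, from 3 basal and 2 apical libraries. For the agonist at 500 nM the difference between basal and apical was -0.04 ± 0.07 (limma adjusted p = 1.00 over all genes; 95% interval -0.18 to 0.11). The side difference of S1P minus that of the agonist was -0.44 ± 0.10 on the log2 scale (SE), given without a test because the basal S1P libraries picked the gene. The doses of the compounds differ. In this side comparison of S1P, 3 of 12249 genes (0.0245%) were called, and basal lay below apical without overlap in 79 (0.645%). The pericyte markers summed to 318 to 2320 with basal and 949 to 2849 with apical S1P, and all 8 tested had lower means with basal S1P, of which limma called 0. The same held for all 6 tested smooth muscle and all 4 tested fibroblast markers. Their part in the side difference was not tested.

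The 3 treatments other than basal S1P were tested against vehicle. The choice of Cpm rested on its fall with basal S1P, so these tests are not wholly free of it. Cpm was also chosen for a small spread between replicates, so the intervals of all its differences, above and below, may be too narrow. With apical S1P the log2 difference of Cpm was -0.09 ± 0.07 (limma adjusted p = 1.00; 95% interval -0.24 to 0.06). With apical agonist it was 0.01 ± 0.07 (adjusted p = 1.00; interval -0.14 to 0.15), a sign that turned to -0.10 when libraries were rescaled to the summed endothelial markers. With basal agonist it was -0.03 ± 0.07 (adjusted p = 1.00; interval -0.18 to 0.12). Without the 4 libraries that Xist set apart they were -0.16 with apical S1P, -0.00123 with apical agonist and -0.03 with basal agonist. None of these differences passed the threshold, and no interval reached the -0.57 seen with basal S1P, for which the gene was picked. In fold terms the lower bounds were 0.848 with apical S1P, 0.907 with apical agonist and 0.884 with basal agonist, so each interval also holds modestly lower levels. In these 3 comparisons limma called 0 of 12249 genes (0%), and 122, 134 and 38 genes had an unadjusted p under 0.05. Basal against apical agonist likewise gave 0 calls (0%), with 61 genes at an unadjusted p under 0.05. All comparisons with vehicle share its 4 libraries.

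**Figure D2:**
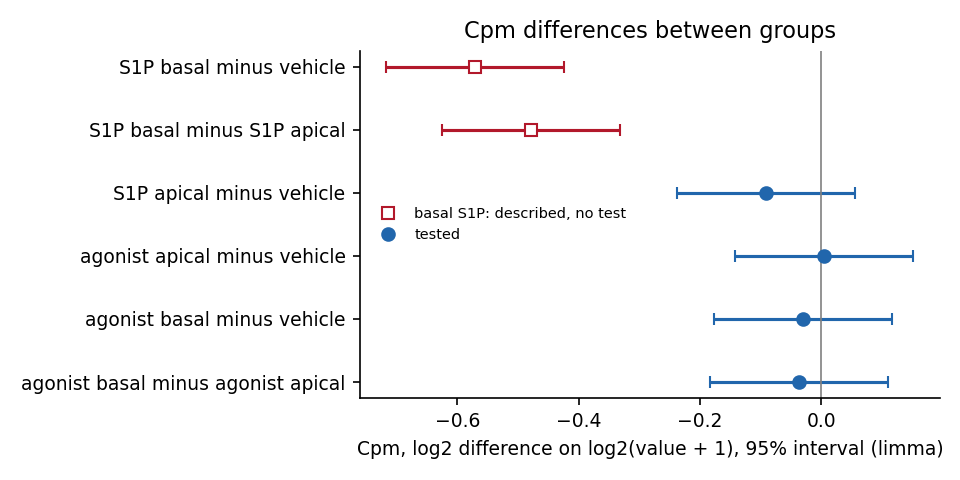
Differences of Cpm between groups (x axis, log2 of value + 1; points are limma estimates over 20 libraries and bars 95% intervals), with open squares for comparisons that hold the basal S1P libraries and are described only. The squares lie at -0.57 and -0.48. Their intervals are not read against 0, because Cpm was picked for its fall with basal S1P and its small spread. The 4 tested differences have intervals that hold 0.

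The sums of endothelial markers overlapped between all groups. The 14 endothelial markers summed to 23521 to 25197 with basal S1P, 24139 to 25086 with apical S1P, 24797 to 26581 with apical agonist, 24145 to 27656 with basal agonist and 22628 to 25563 in vehicle. Per 1000 normalized counts of these markers, Cpm was at 15.1, 15.1, 15.3 and 17.3 with basal S1P and at 23.7, 23.7, 24.1 and 24.0 in vehicle. With apical S1P the ratio was 19.2, 21.9, 23.4 and 22.2, with apical agonist 22.2, 22.3, 21.9 and 22.7, and with basal agonist 22.8, 24.3, 21.8 and 20.1. Rescaled in this way the log2 difference with basal S1P was -0.60. Those with apical S1P, apical agonist and basal agonist were -0.14, -0.10 and -0.11, none of them called. Of the 14 markers, 10 had higher means than vehicle with basal S1P, 10 with apical S1P, 12 with apical agonist and 13 with basal agonist. Over all tested genes 48.5% to 52.5% did, and limma called 0 of the markers. Rescaling to them therefore lowers Cpm in each group against vehicle. In bulk RNA fewer cells that express a gene and less RNA per cell cannot be told apart.

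Other cells were followed by their marker lists. The 10 measured pericyte markers summed to 318 to 2320 with basal S1P and 323 to 2856 in vehicle, the 5 fibroblast markers to 104 to 668 and 118 to 831, and the 7 smooth muscle markers to 997 to 2516 and 1067 to 2035. The 9 microglia and macrophage markers, of interest because carboxypeptidase M is also made by macrophages, summed to 40 to 103 with basal S1P and 43 to 146 in vehicle. All these ranges overlapped, and each spanned far more between replicates than Cpm did. The 5 astrocyte markers summed to 672 to 882 with basal S1P and 535 to 723 in vehicle, mostly from the gap junction gene Gja1 (median 724.5 and 560), which endothelial cells also make, while Gfap was at 0 to 5 and Aqp4 at 0 to 4 over the wild-type libraries. The 3 neuron markers summed to 89 to 347 with basal S1P and 110 to 295 in vehicle, and the 3 oligodendrocyte markers to 350 to 423 and 326 to 378. The part of other cells in the level of Cpm was not tested.

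Relatives of Cpm were compared next. Of the 7 other regulatory carboxypeptidases, the subfamily of Cpm, 5 stood in the wild-type table and 3 were above the mean of 10 that the test required. In vehicle, per kb of exon, Cpd, a carboxypeptidase of the secretory route, was at 294 ± 19.6 normalized counts, Cpe, which trims prohormones, at 294 ± 14.8, Cpm at 95.4 ± 5.19 and Aebp1, a secreted relative that binds collagen, at 32.4 ± 13.4 (SD, n = 4 each). Cpm ranked 6 of the 15 carboxypeptidases of all families with a value, and at percentile 80.5 of all genes on that scale. Cpxm1 and Cpxm2 had means of 2.60 and 3.90 over the wild-type libraries.

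Cpd was at 2462, 2430, 2148 and 2590 with basal S1P and at 2518, 2455, 2229 and 2612 in vehicle (log2 difference -0.03 ± 0.08). Cpe was at 848, 967, 721 and 764 with basal S1P and at 779, 761, 716 and 808 in vehicle (0.10 ± 0.12), and Aebp1 at 184, 143, 124 and 86 and at 177, 178, 99 and 72 (0.08 ± 0.32). Their groups overlapped in each case. None of the 3 passed the limma test in any of the 6 comparisons, with 0 at an unadjusted p under 0.05. Over all tested genes 0.31% to 5.22% had such a p in these comparisons, so little is read from 3 genes. In the list of 7 tested carboxypeptidases of other families 2 had higher and 5 lower means with basal S1P than in vehicle. Against apical S1P 0 were higher and 7 lower. With basal S1P against vehicle 0 were called and 1 had an unadjusted p under 0.05, against 5.22% of all tested genes. The median log2 difference was -0.04, against 0.00 over all tested genes. The lowest were Agbl3 (-0.75 ± 0.29), with a mean of 26.1 over the wild-type libraries, and Agbl5 (-0.40 ± 0.20). The lysosomal enzymes Ctsa (0.09 ± 0.08) and Scpep1 (-0.01 ± 0.09), Prcp (0.01 ± 0.09) and Agtpbp1, which trims tubulin (-0.13 ± 0.09), were the most abundant of that list.

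Of the kinin pathway, the best known substrate route of carboxypeptidase M, 11 of 17 genes were tested. With basal S1P 8 had higher and 3 lower means than in vehicle, with a median of 0.05. Over all tested genes 50.0% had higher means, a share that also stands beside the splits of the lists below. For this list limma called 0 (0.0245% over all tested genes), and 1 had an unadjusted p under 0.05 (5.22% over all). The most abundant were the peptidases Ece1 (0.04 ± 0.07), Ace (0.04 ± 0.08), Prep (0.11 ± 0.10) and Xpnpep1 (0.09 ± 0.08), several of which cut kinins at other bonds. Bdkrb2, the receptor of intact bradykinin, was named after its values were seen. It was at 36, 29, 74 and 90 with basal S1P and at 66, 89, 130 and 143 in vehicle (-0.98 ± 0.44, limma adjusted p = 0.756). Its groups overlapped, with 2 of 4 basal S1P libraries below all vehicle libraries, and its spread was far wider than that of Cpm.

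Among the other substrates and their receptors 9 of 18 genes were tested, 7 with higher and 2 with lower means with basal S1P (median 0.13). Limma called 0 (0.0245% over all tested genes), with 0 at an unadjusted p under 0.05 (5.22% over all). At such shares a short list would often hold none, so nothing is read from these counts. Cxcl12 was the most abundant, at 3554 ± 557 normalized counts with basal S1P and 3347 ± 330 in vehicle (SD, n = 4 each; log2 difference 0.08 ± 0.12), and its receptor Cxcr4 had a difference of 0.10 ± 0.11. The plasminogen activators Plau (0.31 ± 0.16) and Plat (0.32 ± 0.18), whose product plasmin leaves carboxyl-terminal lysines, had higher means in overlapping groups. Epidermal growth factor receptor RNA, Egfr, averaged 22.45 over the wild-type libraries, and C3 averaged 6.45.

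Genes of the membrane anchor of Cpm came next. Of 26 GPI-anchored proteins 22 were tested, 15 with higher and 7 with lower means with basal S1P (median 0.06), and limma called 0 with 3 at an unadjusted p under 0.05, where 5.22% of all tested genes were. The most abundant were Cdh13 (0.06 ± 0.08), Prnp (0.10 ± 0.09), Ly6e (0.01 ± 0.05) and Cd109 (-0.09 ± 0.16). Of 29 genes that build or remodel the anchor 28 were tested, 15 with higher and 13 with lower means (median 0.01). Limma called 0 (0.0245% over all tested genes), with 0 at an unadjusted p under 0.05 (5.22% over all). Among these, Pigt was at 0.12 ± 0.09, Pigq at 0.08 ± 0.10, Pigk at 0.04 ± 0.06 and Pign at -0.06 ± 0.10. No gene of any of these lists was called with apical S1P or either agonist, and no other tested gene was called there. At an unadjusted limma p under 0.05 there was 1 anchor synthesis gene with apical S1P, where 0.996% of all tested genes were. With apical agonist there was 1 GPI-anchored protein, where 1.09% of all tested genes were.

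The genes around Cpm on chromosome 10 were measured as well. Of 13 genes within 1 Mb 12 were tested, 7 with higher and 5 with lower means with basal S1P, and limma called 0 with 1 at an unadjusted p under 0.05, against 5.22% of all tested genes. Mdm2, the closest, encodes the ubiquitin ligase that acts on p53. It was at 495, 596, 692 and 590 with basal S1P and at 519, 516, 752 and 597 in vehicle, a log2 difference of 0.00 ± 0.17 between overlapping groups. Slc35e3, 46.3 kb away, was at -0.09 ± 0.19 and Nup107, a nuclear pore gene 63.3 kb away, at 0.08 ± 0.12.

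**Figure D3:**
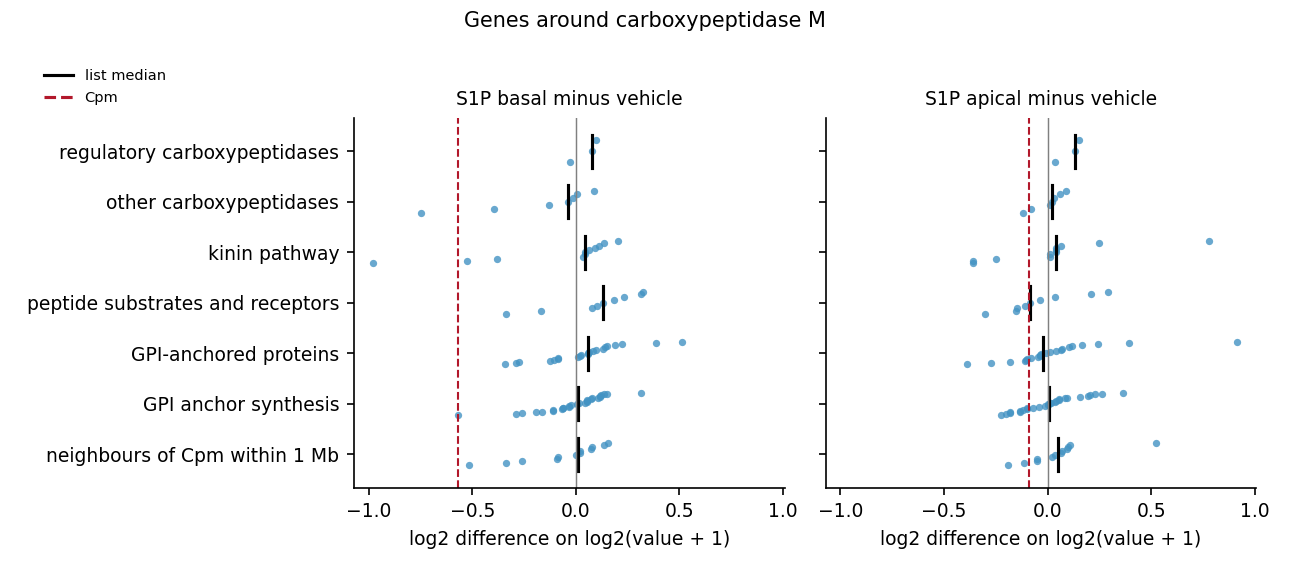
Differences of the tested genes of 7 lists (rows; Cpm left out of each) with basal S1P (left) and apical S1P (right) against vehicle, on the log2(value + 1) scale; each dot is a gene, black bars are list medians and the dashed line is Cpm. With basal S1P the list medians lie between -0.04 and 0.13 while Cpm is at -0.57, and with apical S1P Cpm is at -0.09.

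The genes most like Cpm over the 20 wild-type libraries were found by Pearson's r on log2(value + 1). Over 12248 genes r ran from -0.80 to 0.86, and 90% of genes lay between -0.40 and 0.42. The highest were Ackr4, a scavenging receptor for chemokines (r = 0.86), Trpm6, a magnesium-permeable channel (0.85), Gpr146, an orphan receptor (0.85), Reck, a GPI-anchored regulator of matrix proteases (0.83), and Chst15, a sulfotransferase of chondroitin sulfate (0.82). Ackr4 was at 52, 61, 38 and 55 with basal S1P and at 152, 153, 92 and 129 in vehicle. Gpr146 was at 535, 530, 416 and 533 with basal S1P and at 655, 615, 558 and 651 in vehicle, and Reck at 625, 564, 494 and 607 and at 694, 699, 637 and 736. Trpm6 was at 550, 463, 623 and 609 with basal S1P and at 777, 786, 735 and 766 in vehicle, and Chst15 at 359, 375, 318 and 355 and at 434, 427, 433 and 445. In all 5 genes the 4 basal S1P libraries lay below the 4 vehicle libraries, as in 1.08% of all tested genes; a high r with Cpm favours this pattern. Over the 16 libraries without basal S1P r was 0.14 for Ackr4, 0.45 for Trpm6, 0.58 for Gpr146, 0.50 for Reck and 0.11 for Chst15, with 90% of genes between -0.36 and 0.36.

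The lowest r belonged to Nup210, a nuclear pore gene (r = -0.80), Idh2, a mitochondrial isocitrate dehydrogenase (-0.75), the non-coding K230015D01Rik (-0.74), Ano1, a calcium-activated chloride channel (-0.73), and Rapgef4, an exchange factor for Rap (-0.73). Ano1 was at 506, 481, 650 and 625 with basal S1P and at 362, 361, 451 and 393 in vehicle, where the groups did not overlap, as in 1.03% of tested genes on the higher side. Without the basal S1P libraries r was -0.47 for Nup210, -0.35 for Rapgef4, -0.20 for K230015D01Rik, -0.15 for Idh2 and -0.10 for Ano1. With each group's mean removed over all 20 libraries, r of K230015D01Rik turned to 0.21 and that of Ano1 to 0.00. These coefficients describe libraries that share depth and replicate sets, and no p is given for them.

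**Figure D4:**
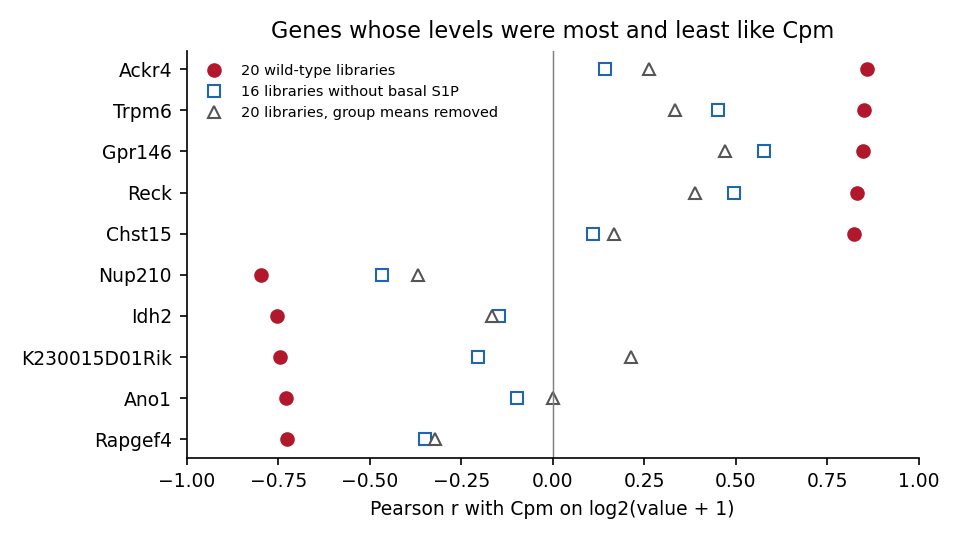
Pearson's r with Cpm (x axis) for the 5 genes with the highest and the 5 with the lowest r over 20 wild-type libraries (red circles), over the 16 libraries without basal S1P (blue squares) and over 20 libraries with group means removed (grey triangles). The squares lie between -0.47 and 0.58, nearer to 0 than every red circle.

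In the libraries labelled S1P4 knockout Cpm was at 907, 883, 842 and 976 normalized counts of the second table. Per 1000000 normalized counts of the library this was 51.3 ± 2.81 in knockout cells, against 124 ± 5.23 in vehicle-treated wild-type cells (SD, n = 4 each). The tables were normalized separately, and abundant genes reached 266381 in the knockout table and 8346 in the wild-type one. Sums of cell markers are likewise not on one scale between the tables, so they do not show more or fewer cells of a type. The 14 endothelial markers summed to 282957 to 310661 in knockout and 22628 to 25563 in wild-type vehicle, with Pecam1 at 70128 to 75957 in knockout. The 10 measured pericyte markers summed to 427 to 1194 in knockout and 323 to 2856 in vehicle. The part of cell composition in the level of Cpm was not tested. Among the 1720 genes whose level in vehicle was within 99.3 to 155 per 1000000, the median log2 difference between knockout and vehicle was -0.72, with 90% of genes between -1.30 and 0.67. Cpm was at -1.28 on that scale, lower than all but 6.05% of them. Among the 537 of these genes that also had 4.77 to 7.46 kb of exon, the median was -0.78 and Cpm lay at percentile 3.72.

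A rank within each library does not depend on a factor for the whole library. Differences between the tables that vary from gene to gene change ranks too, so ranks are not fully comparable between the tables. Among the 16765 genes of both tables Cpm stood at percentile 74.1 to 76.9 in the knockout libraries and 84.0 to 86.0 in wild-type vehicle. With basal S1P it stood at 73.1 to 77.6, with apical S1P at 80.6 to 86.0, with apical agonist at 84.0 to 85.2 and with basal agonist at 83.5 to 85.4. Cpd and Cpe had higher means in knockout per 1000000, at 749 ± 78.3 and 325 ± 42.0 in knockout and at 536 ± 28.5 and 167 ± 6.12 in vehicle, and Mdm2 was at 79.6 ± 2.98 and 130 ± 25.5 (SD, n = 4 each). Genotype and table cannot be told apart here, and no test was made between them.

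**Figure D5:**
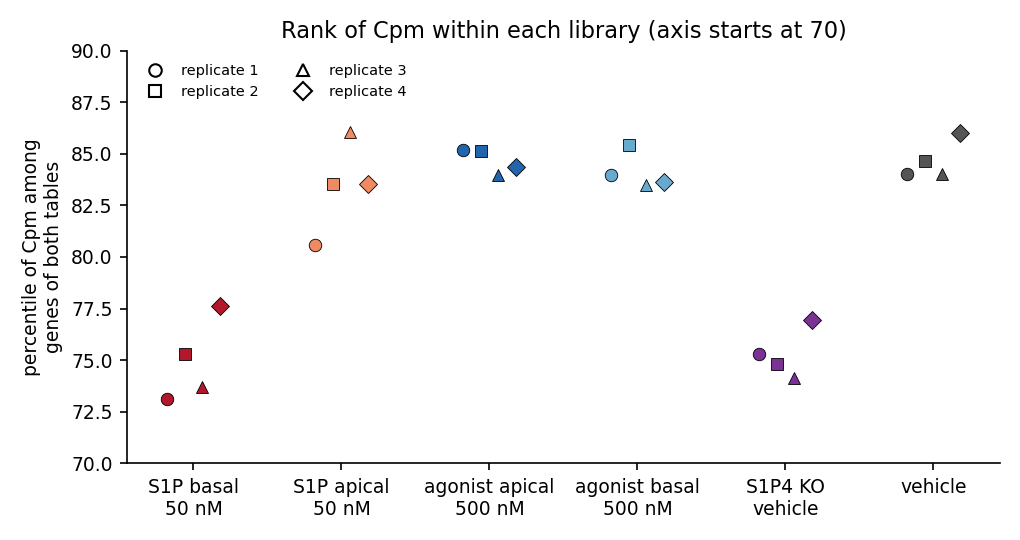
Rank of Cpm within each library, as its percentile among the 16765 genes of both tables (y axis, which starts at 70), by group (x axis), with symbols for the replicate number. The basal S1P libraries lie between 73.1 and 77.6 and the other wild-type libraries between 80.6 and 86.0. The knockout libraries lie between 74.1 and 76.9 and come from a table made separately, so their ranks are not fully comparable with the others.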

How the data were processed

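Gene RNA was sequenced in 24 libraries (20 wild-type, 4 labelled S1P4 knockout). The submitters' processing notes list, with no role or order, the build mm10 and the tools STAR 2.7.3a, DESeq2 1.26.0, featureCounts 1.6.5, Subread, Trimmomatic 0.38 and FastQC. The library kit keeps strand, per the labels' protocols; how strand and duplicates were treated in counting is not stated. The deposited values are a signal per gene, whole numbers whose steps show counts scaled by a factor for each library. From these steps the libraries held an estimated 17.1 to 21.1 reads on genes (units of 1000000) in knockout and 3.93 to 5.54 in wild type; the values are not raw counts, and no count model was used. Of the knockout genes 18029 stood on 2 identical rows, of which 1 was kept.

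Log2(value + 1) of the 12249 genes with a mean of at least 10 entered a limma fit (version 3.58.1, R 4.3.3) of the 5 wild-type groups with a mean-dependent prior variance. P-values were Benjamini-Hochberg adjusted over all genes, with calls under 0.05. This scale understates changes of low genes. The fit was tested on simulated data. Exon lengths come from GENCODE M21. Cpm and all lists were chosen with earlier results of these data known. The genes named were Cpm, its measured subfamily, genes within 100 kb, the 4 most abundant of each other list and the 5 with the highest and lowest r. Bdkrb2, Egfr, C3, Agbl3 and Agbl5 were added for their role or after their values were seen. Alternatives were another pseudocount, filter, scaling, prior variance or set of groups, the replicate number as a term, and leaving libraries out. Libraries of the same number deviated together, with a correlation over 0.1, in every pair of the 4 tested comparisons. This was not so in replicate 2 of basal S1P with vehicle nor in replicates 2 and 3 of basal with apical S1P (-0.34 to 0.81 over 24 pairs). Numbers therefore pair the libraries only in part, and 15 of 20 libraries were closest to their own number. In a tested comparison, S1P apical replicate 4 was closest to number 3 (mean correlation 0.68, against 0.27 with its own). S1P apical replicate 2 was closest to number 1 (0.53 against 0.25).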

Additional observations from a re-analysis of the deposited data

Results flagged for a closer look

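Among 132 groups of 4 libraries (Cpm, its measured subfamily, genes within 100 kb, those of highest and lowest r, Bdkrb2, Plau and Plat), 4 held a library whose gap to the nearest other one was above Dixon's 95% critical value, as a share of the group's range; chance flags about 1 group in 20. Gpr146 was at 416 in S1P basal replicate 3, against 530 to 535 in the other basal S1P libraries (ratio 0.958). Reck was at 623 in S1P apical replicate 4, one of the libraries that Xist set apart, against 688 to 698 (ratio 0.867). Bdkrb2 was at 131 in knockout replicate 1, against 87 to 92 (ratio 0.886). Cpxm2 was at 8 in knockout replicate 4 and at 0 in the other knockout libraries (ratio 1.000), a level near that of no reads. No group of Cpm held such a library, but a small spread between replicates was part of why Cpm was picked.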

How the results depend on the processing

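The log2 differences of Cpm with basal S1P kept their sign and stayed within 1 SD under all 18 alternatives. They were at -0.63 to -0.53 against vehicle (the range without single libraries). Against apical S1P they were at -0.54 to -0.41 (-0.54 to -0.43 without single libraries). Cpm was picked for this fall and its small spread, so the kept sign and size lend it no support. The difference with apical agonist turned to -0.10 when rescaled to endothelial markers and to -0.00123 without the 4 libraries that Xist set apart, and ran from -0.0147 to 0.0425 without single libraries. That of basal agonist ran from -0.0584 to 0.00643 without single libraries, above 0 without vehicle replicate 4 only, and was -0.11 rescaled to endothelial markers. Apical S1P (-0.16 to -0.04) and basal against apical agonist (-0.06 to -0.003) kept their sign, and no alternative called Cpm in the 4 tested comparisons (smallest adjusted p = 0.815).

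The 3 calls of basal S1P against vehicle became 0 on the 8 libraries alone and 47 with the replicate block, and 2 to 4 without single libraries. The 3 calls against apical S1P became 1 on the 8 libraries alone, 83 with the replicate block, 0 without the 4 libraries, and 1 to 3 without single libraries: 1 without S1P apical replicate 2 or 3 or S1P basal replicate 1 or 3. Numbers do not pair all of these libraries, since 1 pair with vehicle and 2 pairs with apical S1P did not deviate together. Over all groups 15 of 20 libraries were closest to their own number. The block changed no call in the tested comparisons, where every alternative gave 0 genes. The cause of these changes was not tested. Depth gave Cpm an estimated counting error of 3.03% to 3.34% in each knockout library and 3.87% to 5.50% in each wild-type library.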
